A study of Mus musculus with 6 samples.

Results

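Cycling immune nuclei were nuclei of mouse white adipose tissue (WAT) that held RNA of proliferation genes together with RNA of immune genes. They were chosen by counts of unique molecular identifiers (UMIs), each standing for 1 captured RNA molecule. A kept nucleus was a member when Mki67, Top2a, Cenpf and Cenpe together had at least 4 UMIs from at least 2 of the genes, with at least 2 from Mki67 and Top2a. It also had at least 2 UMIs of Ptprc, Ikzf1 and Dock2 and at most 1 UMI of Plin1, Epcam, Pdgfra, Ptprb and Upk3b, which mark adipocytes, epithelial, stromal, endothelial and mesothelial cells. This rule found 435 nuclei of 27074 kept nuclei (1.61%), or 4.76% of the 9143 nuclei that met the immune part of the rule. By counts of lineage genes, 278 members were T lineage nuclei, 90 were B lineage nuclei, 20 carried both gene lists and 47 carried neither.

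Single-nucleus RNA sequencing (snRNA-seq) was run on fat of female C57BL/6J mice in 6 libraries. There were 2 libraries of inguinal subcutaneous adipose tissue (SAT) at 2 months, 2 of SAT at 24 months and 2 of the gonadal depot of visceral adipose tissue (VAT), also at 24 months, ages being those of the sample labels. No genetic change or treatment is given for any group, and the labels do not say which mouse each library came from. By the study's text both depots were taken from 2 mice per age, so that the SAT and VAT libraries of 24 months share animals, and tests between depots treat them as independent. The p-values for age and depot set differences against the spread between libraries, in which animals and technical steps cannot be told apart. Those for cycling against non-cycling nuclei, with library as a block, set the difference against how far it varied between libraries. The libraries held 6158 to 11341 barcodes and 8061862 to 16226690 UMIs, and 2490 to 5776 nuclei per library passed the filters, with median depths of 1380 to 1878 UMIs. The labels name the cell type of each library as adipocytes, yet Ptprc, Ikzf1 and Dock2, genes of white blood cells, put 9143 kept nuclei in the immune gate. Gated nuclei were unevenly spread, with 2500 and 3948 in SAT at 2 months, 890 and 557 in SAT at 24 months, and 193 and 1055 in VAT at 24 months. A short list of lymph node stroma genes reached 357 and 372 counts per 1000000 UMIs (CPM) over all kept nuclei of SAT at 2 months, 132 and 45.4 CPM in SAT at 24 months, and 60.1 and 146 CPM in VAT. The Lymph node stroma list was thus highest where gated nuclei were most numerous, and its part in the results below was not tested.

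A cell that divides copies its DNA in S phase and separates the copies in mitosis. Genes for replication enzymes are switched on by E2F factors as the cell enters S phase. Genes for the spindle and the kinetochore are switched on later, in G2, by a complex of B-Myb, FoxM1 and MuvB proteins that binds the cell cycle genes homology region (CHR), often beside CCAAT boxes bound by NF-Y. Most lymphocytes in tissue are quiescent. T cells divide after their antigen receptor is engaged, and B cells divide in bursts inside germinal centres, where their antibody genes are altered and selected.

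The promoters of several genes that carry the pattern below are shown because these elements can be read in them directly. Sequences come from the RefSeq promoter table (built on GRCm38.p6) and were placed in GRCm39 by exact match. Each runs 5′ to 3′ on the strand of its gene. In the next stretches, capitals mark CCAAT, its reverse ATTGG, or the E2F-like letters TTTNNCGC on either strand, and each stretch ends shortly before the RefSeq transcript start.
Top2a, chr11:98915063-98915162, minus strand, 47 bases before the start: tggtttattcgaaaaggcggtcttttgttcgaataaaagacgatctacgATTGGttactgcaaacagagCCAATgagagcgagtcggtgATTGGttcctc
Cenpf, chr1:189420316-189420365, minus strand, 32 bases before the start: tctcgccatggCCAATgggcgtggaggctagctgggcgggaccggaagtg
Mcm6, chr1:128287517-128287616, minus strand, 74 bases before the start: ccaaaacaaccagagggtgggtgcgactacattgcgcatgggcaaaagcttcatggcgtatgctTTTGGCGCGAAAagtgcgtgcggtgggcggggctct
Top2a held 3 CCAAT matches and Cenpf 1, while Mcm6, a subunit of the replicative helicase, held 2 overlapping E2F-like matches.

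The CHR letters TTTGAA, or TTCAAA on the other strand, are in capitals in the next windows of 24 bases. These windows lie close to the transcript start and inside an exon of the GENCODE annotation.
Mki67, chr7:135318192-135318215, minus strand: ccgttttggTTTGAAtcgggcggg
Top2a, chr11:98915024-98915047, minus strand: agataaaggTTCAAAtgaaactag
Cenpf, chr1:189420267-189420290, minus strand: ggcgggcagTTTGAAtcgctcgtg
Kif15, chr9:122780118-122780141, plus strand: ggcgccaaaTTCAAAtctgcggcc
Aspm, chr1:139382508-139382531, plus strand: ggcgcgataTTTGAAccgagcaaa
Hmmr, chr11:40624242-40624265, minus strand: tgaggtaaaTTTGAAttcaggcga
Ccnb2, chr9:70328818-70328841, minus strand: ggcgcggtaTTTGAAtcgcggacc
Ckap2l, chr2:129139148-129139171, minus strand: ttggcgaatTTCAAAgtcgcggaa
Of the 4 proliferation genes of the rule, 3 had TTTGAA in the 300 bases around the start (not Cenpe), 4 had CCAAT and 0 had TTTNNCGC. The other form of the CHR, TTTAAA, was in 2 of them, and either form was in all 4.

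The share of promoters with each element varied between the cell cycle lists. TTTGAA on either strand was present in 73.0% of promoters of the Spindle and kinesins list (27 of 37) and 48.5% of the Kinetochore and checkpoint list, but in 8.89% of the DNA replication list and 17.9% of all 32851 promoters. The E2F-like letters were present in 42.2% of promoters of the DNA replication list (19 of 45), 10.8% of the Spindle and kinesins list and 5.17% of all promoters. Other lists held both elements, with TTTGAA and the E2F-like letters each in 40% of the Cell cycle transcription factors list, in 43.3% and 26.7% of Condensin and chromatin, and in 40.9% and 27.3% of Cyclins, CDKs and regulators. CCAAT was present in 57.8% of the DNA replication list, 59.5% of the Spindle and kinesins list, 72.7% of the Kinetochore and checkpoint list, 40% of the transcription factor list and 37.4% of all promoters. A match is a description of these letters in this window and not a measured binding site.

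**Figure D1:**
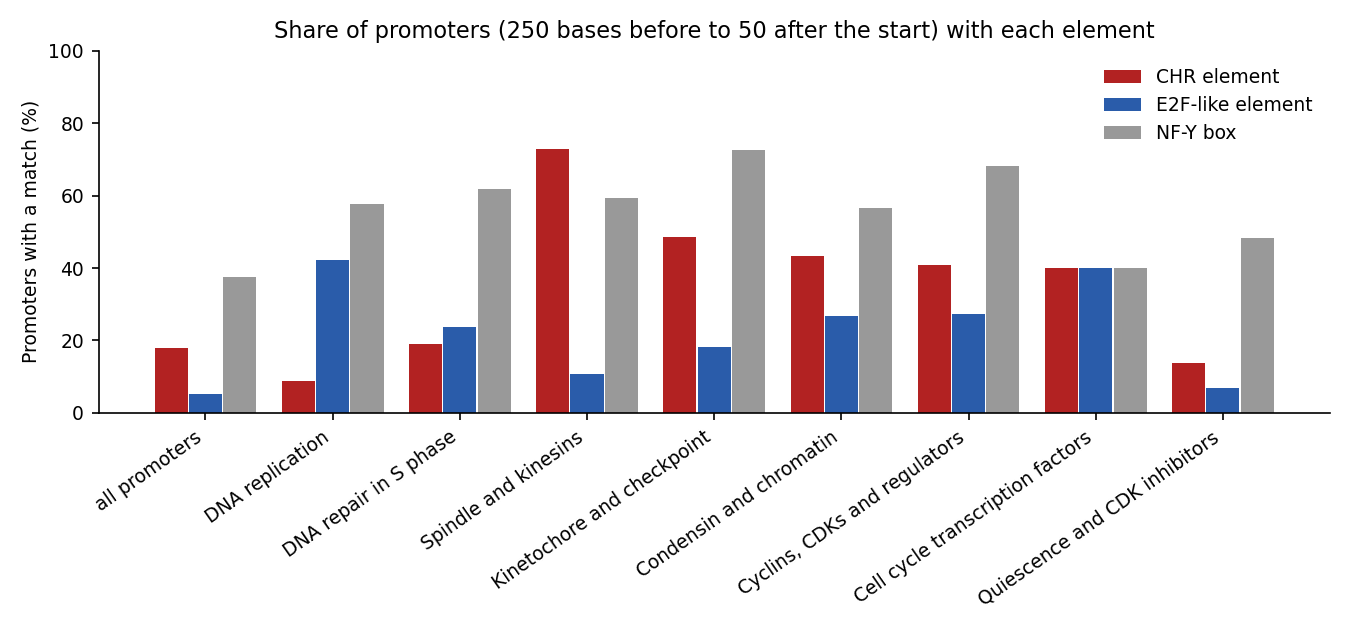
Share of promoters (y axis, percent) that hold each element, in bars for each cell cycle gene list and for all promoters of the RefSeq table. The CHR element, here the TTTGAA form only, reached 73.0% in the Spindle and kinesins list against 8.89% in the DNA replication list, and the E2F-like element 10.8% against 42.2%.

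The rule genes are described without a test because they chose the members. Mki67 (chr7:135291513-135318299, minus strand), which encodes the protein that coats mitotic chromosomes, had a UMI in 424 of 435 members (97.5%), with a median of 5 and a maximum of 77. Top2a (chr11:98883769-98915062, minus strand), a topoisomerase that untangles copied DNA, had a UMI in 384 members (88.3%). Cenpe (chr3:134918298-134979372, plus strand), a kinetochore motor, and Cenpf (chr1:189372752-189420315, minus strand), a kinetochore protein, had UMIs in 314 (72.2%) and 231 (53.1%) members. Members carried a median of 11 UMIs of the 4 genes, with a range of 4 to 149.

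Most members lay well inside the threshold. Among members, 39 had exactly 4 UMIs of the proliferation genes, 40 had 5 and 356 had 6 or more. Just outside it, 85 gated nuclei had 3 UMIs, 168 had 2 and 503 had 1, and 38 with 4 or more failed the rest of the cycle part. On the immune side, 45 members had exactly 2 UMIs of the 3 immune genes and 37 had 3. A further 38 nuclei met the cycle part with 1 immune UMI, and 19 met both parts with more than 1 UMI of other cell types. Among the 6376 kept nuclei with 0 immune UMIs and 2 or more of the other cell types, 21 met the cycle part (0.329%, per library 0.0520% to 0.953%), against 4.76% in the immune gate. No member's barcode was a member in another library, and 12 member barcodes occurred in another library.

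Cycling nuclei were found in every library, at 2.07% to 10.2% of gated nuclei, and their share of gated nuclei overlapped between the groups. In SAT at 2 months, 137 of 2500 gated nuclei (5.48%, exact 95% interval 4.62 to 6.45) and 130 of 3948 (3.29%, 2.76 to 3.90) were members. SAT at 24 months had 43 of 890 (4.83%, 3.52 to 6.45) and 13 of 557 (2.33%, 1.25 to 3.96). VAT at 24 months had 4 of 193 (2.07%, 0.568 to 5.22) and 108 of 1055 (10.2%, 8.47 to 12.2). These intervals are Clopper-Pearson and, like all intervals and floors given here, cover counting error only. The VAT libraries stood at the lowest and the highest share of all 6, so that the spread between replicates was larger than any difference between groups. The share was 3.58% ± 1.77 (SD, n = 2) in SAT at 24 months against 4.39% ± 1.55 (SD, n = 2) at 2 months (exact two-sided permutation p = 0.667). It was 6.15% ± 5.77 (SD, n = 2) in VAT at 24 months (against SAT at 24 months, exact permutation p = 1, with libraries of the same mice taken as independent). With 2 libraries against 2, this test cannot give a p below 0.33. Without replicate 2 of VAT the difference between the depots was −1.51 points, instead of 2.57, and with looser filters on nuclei it was 0.230. Of all kept nuclei, members were 2.98% and 2.25% in SAT at 2 months, 1.73% and 0.276% in SAT at 24 months, and 0.0902% and 2.13% in VAT. With this denominator the SAT ages did not overlap (−1.61 points at 24 months, exact permutation p = 0.333, the smallest this design allows), and the depots differed by 0.109 points (p = 1).

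**Figure D2:**
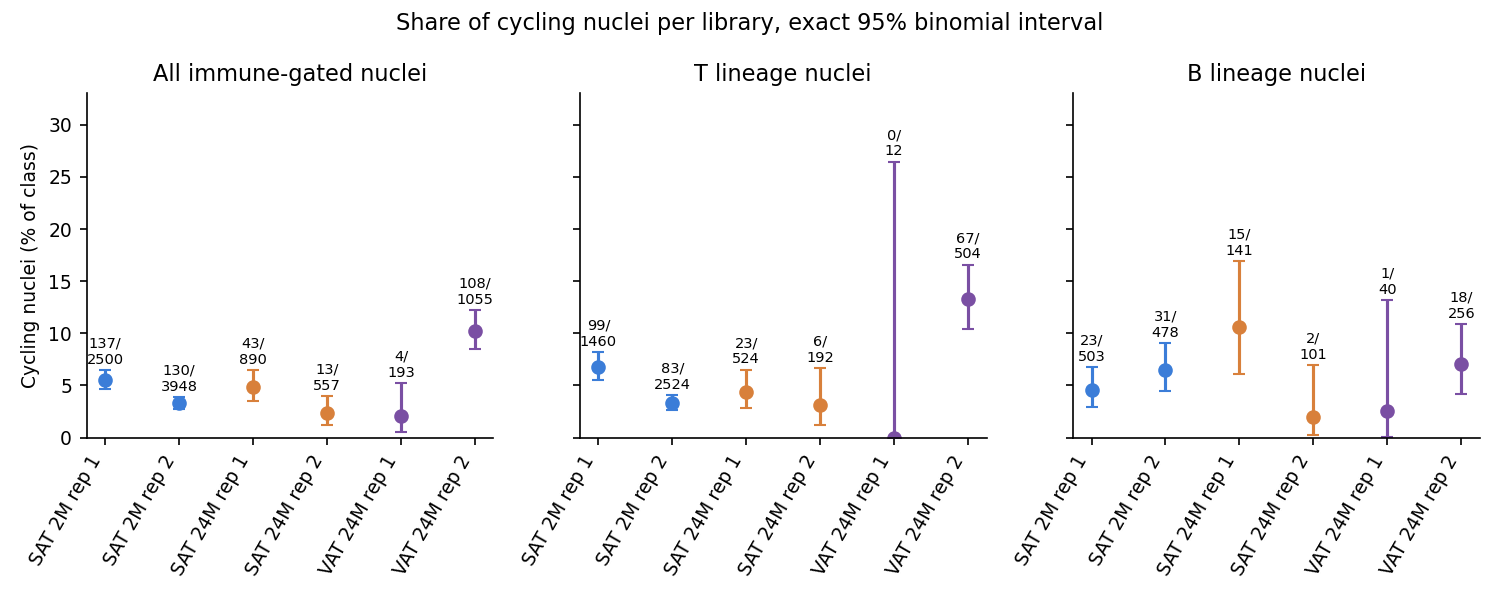
Percent of gated nuclei that were cycling (y axis) in each of the 6 libraries (x axis), for all gated, T lineage and B lineage nuclei, with exact 95% intervals and the number of members over the number of gated nuclei. The 3 groups overlap in each panel, and VAT replicate 2 has the highest share of all gated nuclei at 10.2%.

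T lineage nuclei made up 63.9% of members. In SAT at 2 months, 6.78% and 3.29% of gated T nuclei were cycling, in SAT at 24 months 4.39% and 3.13% (6 of 192 in replicate 2), and in VAT replicate 2 13.3%. VAT replicate 1 had 0 members among 12 T nuclei (exact 95% upper limit 26.5%). The T share was 3.76% ± 0.894 (SD, n = 2) in SAT at 24 months against 5.03% ± 2.47 (SD, n = 2) at 2 months (exact permutation p = 0.667), and 6.65% ± 9.40 (SD, n = 2) in VAT (exact permutation p = 1).

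B lineage nuclei made up 20.7% of members, and 90 of 1519 gated B nuclei were cycling (5.92%), beside 278 of 5216 T nuclei (5.33%). By library the B share was 4.57% and 6.49% in SAT at 2 months, 10.6% and 1.98% in SAT at 24 months, and 2.5% and 7.03% in VAT. The highest and the lowest value both came from SAT at 24 months. The B share was 6.31% ± 6.12 (SD, n = 2) in SAT at 24 months against 5.53% ± 1.35 (SD, n = 2) at 2 months, and 4.77% ± 3.20 (SD, n = 2) in VAT (exact permutation p = 1 in both). Every nucleus was also thinned to 1000 UMIs and counted at 2 or more cycle UMIs, without the 2-gene and the Mki67 plus Top2a parts of the rule. This left the groups overlapping for all gated nuclei, at 3.23% to 11.8% per library, and for B nuclei. T nuclei then had 7.81% and 4.52% in SAT at 2 months, 4.96% and 4.17% in SAT at 24 months, and 8.33% and 14.9% in VAT, where both values were above those of SAT (7.04 points above SAT at 24 months, exact permutation p = 0.333). VAT replicate 1 held only 12 T nuclei, with 0% at 4 or at 3 cycle UMIs under the full rule. The separation of the depots thus rests on few nuclei and on a rule without those parts.

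Members were deeper than other gated nuclei. Median depth was 2299 UMIs in cycling and 1345 in non-cycling T nuclei, and 2148.5 against 1357 in B nuclei, non-cycling being gated nuclei of the same lineage with 0 UMIs of the 4 proliferation genes. A rule that asks for 4 UMIs takes deep nuclei more readily, and dividing cells can hold more RNA, and these cannot be told apart here. The median mitochondrial share was higher in cycling than in non-cycling T nuclei in 4 of 4 libraries, by 3.23 ± 1.19 percentage points (SD, n = 4, exact permutation p = 0.125), and in B nuclei in 1 of 4.

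Genes were compared between cycling and non-cycling nuclei of the same library, with UMIs summed per library and class. The 4 libraries with at least 10 members of each lineage entered, namely both of SAT at 2 months, replicate 1 of SAT at 24 months and replicate 2 of VAT, and values below follow this order. The rule sorted these same nuclei by Mki67, Top2a, Cenpf and Cenpe, so that other cell cycle genes follow from the choice in part and are no independent evidence that the nuclei divided. A gene that is low in non-cycling nuclei could pass the filter on low counts only through the class where it was high and then had to differ, so that the counts of cell cycle genes that rose describe the genes tested and not the whole lists. Levels are CPM of summed UMIs, and calls have a Benjamini-Hochberg adjusted p under 0.05 in edgeR's quasi-likelihood test.

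In T lineage nuclei, 757 of 7996 tested genes were higher in cycling nuclei (9.47%) and 672 were lower (8.4%). The 7 cell cycle lists, 222 genes that do not include the rule genes, summed to 40136, 37471, 39684 and 42087 CPM in cycling and to 9424, 9512, 7611 and 8064 CPM in non-cycling T nuclei. The 2 ranges were far apart. The 12 genes with the largest rises were Pimreg, Aspm, H1f5, Ska1, Sapcd2, Neil3, E2f7, Ccna2, Hmmr, Tpx2, Ccnb1 and Kif15, with log2 fold changes from 5.62 to 7.20, against a median of −0.07 over all tested genes. The count of called genes, 1429 in all, was 703 without replicate 1 of SAT at 2 months (485 higher, 218 lower) and 930 without replicate 2 (552 higher, 378 lower). It was 736 with nuclei thinned to 1000 UMIs.

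**Figure D3:**
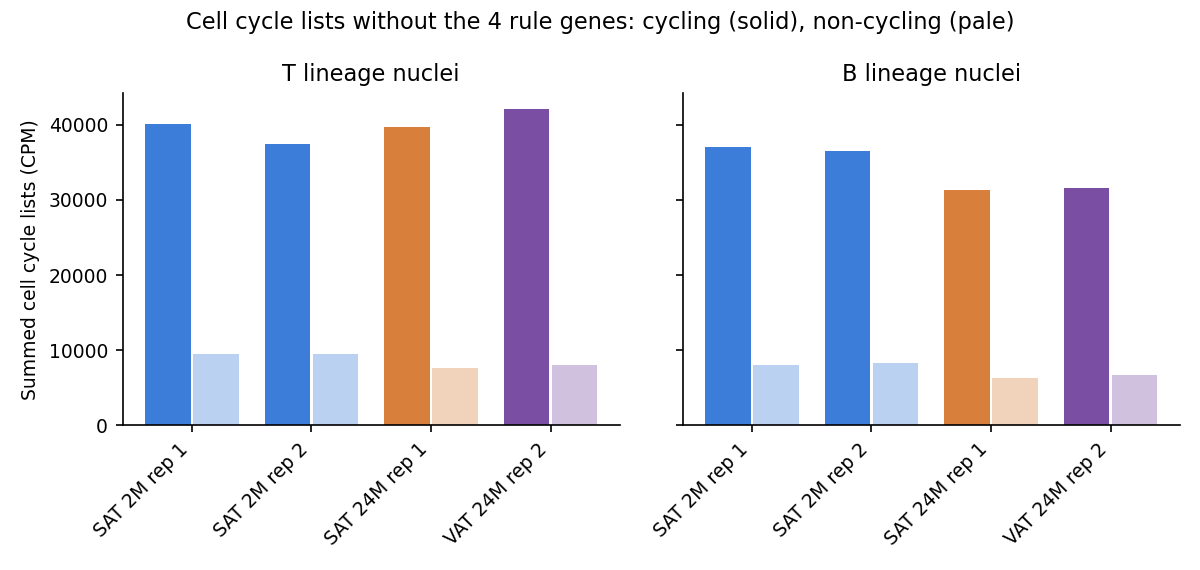
Summed level of the 7 cell cycle lists (y axis, CPM) in cycling (solid bars) and non-cycling (pale bars) nuclei of the T and the B lineage, for the 4 libraries with at least 10 members of each. Cycling nuclei held 31321 to 42087 CPM and non-cycling nuclei 6282 to 9512 CPM.

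Genes of DNA synthesis rose in cycling T nuclei. Of the DNA replication list, 42 of 43 tested genes rose and 0 fell (49 listed, median log2 fold change 2.44). The list summed to 7252, 7268, 6108 and 6589 CPM against 1356 to 1384 CPM. Rrm2, the subunit of ribonucleotide reductase that is made in S phase, had 244, 360, 264 and 294 CPM in cycling against 5.76 to 8.48 CPM in non-cycling T nuclei. Mcm6 had 186, 232, 185 and 268 CPM against 31.6 to 47.1 CPM (log2 fold change 2.33, SE 0.23, edgeR adjusted p = 1.33e-06). For both genes the classes did not overlap. Clspn, which carries the replication checkpoint signal, had 332, 314, 330 and 405 CPM against 1.32 to 23.0 CPM. Atad2, a chromatin factor of S phase, had the list's highest mean over the 4 libraries in cycling nuclei, though it was below Clspn in VAT replicate 2. Atad2 rose less, from 123 to 144 CPM up to 428, 633, 554 and 300 CPM (log2 fold change 1.80, SE 0.19, edgeR adjusted p = 2.17e-06). Of the DNA repair in S phase list, 20 of 22 tested genes rose and 0 fell (24 listed, median 3.20), with 2850 to 3238 CPM in cycling and 381 to 549 CPM in non-cycling nuclei. Rad51b, a gene of homologous recombination, had 480, 418, 528 and 549 CPM against 55.3 to 125 CPM.

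Genes of mitosis had larger median changes than those of DNA synthesis, but this order follows in part from the choice of nuclei. The rule used the kinetochore genes Cenpe and Cenpf, and non-cycling nuclei held no UMI of any rule gene for proliferation. Whether mitosis genes differed more apart from that choice was not tested. All 34 genes of the Spindle and kinesins list were tested and rose (median 4.53), with sums of 8801, 8005, 9182 and 10847 CPM against 970 to 1182 CPM. Kif15 (chr9:122780111-122847806, plus strand), a kinesin that holds spindle poles apart, had 488, 372, 356 and 438 CPM in cycling and 11.4, 6.66, 5.27 and 7.68 CPM in non-cycling T nuclei (log2 fold change 5.62, SE 0.24, edgeR adjusted p = 4.93e-11). Aspm, a spindle pole protein, had 277, 215, 251 and 405 CPM against 0 to 3.84 CPM. Of the Kinetochore and checkpoint list, 32 of 33 tested genes rose and 0 fell (35 listed, median 4.55), with 5200 to 6648 CPM against 322 to 457 CPM. Incenp (chr19:9846569-9876924, minus strand), the scaffold of the Aurora B complex, had 565, 616, 699 and 842 CPM against 55.5, 50.6, 59.3 and 61.4 CPM (log2 fold change 3.51, SE 0.18, edgeR adjusted p = 4.43e-10). Knl1, which links microtubules to the checkpoint, had 483, 389, 449 and 810 CPM against 7.91 to 15.4 CPM. No library of one class reached the other for any of these 4 genes.

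Most chromatin genes rose. Of the Condensin and chromatin list, 21 of 23 tested genes rose and 0 fell (26 listed, median 2.15), with 7748 to 8536 CPM against 1574 to 2585 CPM. Hmgb2, a DNA-bending protein, had 653, 732, 567 and 718 CPM against 51.8 to 79.1 CPM. Smc4, a core subunit of condensin, had 1023, 865, 1055 and 1463 CPM in cycling and 917, 711, 206 and 532 CPM in non-cycling T nuclei. Its classes overlapped between libraries, although it was higher in 4 of 4 (log2 fold change 0.94, SE 0.27, edgeR adjusted p = 0.0234). Without VAT replicate 2 this call was lost (edgeR adjusted p = 0.14).

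Among regulators, the G1 cyclin Ccnd3 went the other way. Of the Cyclins, CDKs and regulators list, 26 of 29 tested genes rose and 1 fell (32 listed, median 2.99), with 4108 to 4617 CPM against 1745 to 3000 CPM. Ccna2, the cyclin of S and G2 phase, had 87.7, 99.3, 92.4 and 84.9 CPM against 0 to 1.82 CPM, and Ccnb1, the mitotic cyclin, had 71.8 to 119 CPM in cycling nuclei. Ccnd3 (chr17:47815767-47910624, plus strand), a D-type cyclin that acts before S phase, had 491, 650, 475 and 320 CPM in cycling and 1780, 2289, 1066 and 973 CPM in non-cycling T nuclei. It was the 1 member that fell, with no overlap (log2 fold change −1.70, SE 0.17, edgeR adjusted p = 1.32e-06). Cdk6, a partner of D-type cyclins, rose by a log2 fold change of 1.16. Its relative Cdk4 had 134, 66.2, 13.2 and 39.2 CPM in cycling nuclei and 43.0 to 56.5 CPM in non-cycling nuclei (edgeR adjusted p = 0.464).

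Of the Cell cycle transcription factors list, 12 of 19 tested genes rose and 0 fell (22 listed, median 1.90), with 2292 to 2480 CPM against 881 to 1157 CPM. E2f7, a repressor of E2F targets in late S phase, had 203, 95.2, 172 and 222 CPM against 0 to 3.95 CPM. E2f2, an activating E2F, had 247, 298, 317 and 274 CPM against 21.1 to 32.6 CPM. Rb1, the retinoblastoma protein that restrains E2F, had 121, 203, 198 and 163 CPM against 137, 138, 275 and 140 CPM, with overlap (edgeR adjusted p = 0.973).

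Genes of quiescence fell in cycling T nuclei. Of the Quiescence and CDK inhibitors list, 9 of 17 tested genes fell and 1 rose (22 listed, median −0.88), and the list summed to 1801, 2201, 1636 and 1783 CPM against 3483, 3947, 3215 and 2845 CPM. Ypel3, a growth-suppressing gene, had 82.3, 99.3, 79.2 and 91.4 CPM against 286, 251, 253 and 265 CPM (log2 fold change −1.63, SE 0.21, edgeR adjusted p = 2.34e-05). Foxp1, which keeps naive T cells at rest, had 321, 401, 185 and 189 CPM against 868, 1225, 672 and 484 CPM. Neither gene's classes overlapped. Cdkn2c was the 1 that rose, and it encodes the inhibitor p18, a known E2F target, with 32.9, 70.3, 132 and 78.4 CPM against 2.64 to 26.9 CPM. Cdkn1b, which encodes the inhibitor p27, had 78.6 to 115 CPM against 130 to 174 CPM (edgeR adjusted p = 0.101).

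**Figure D4:**
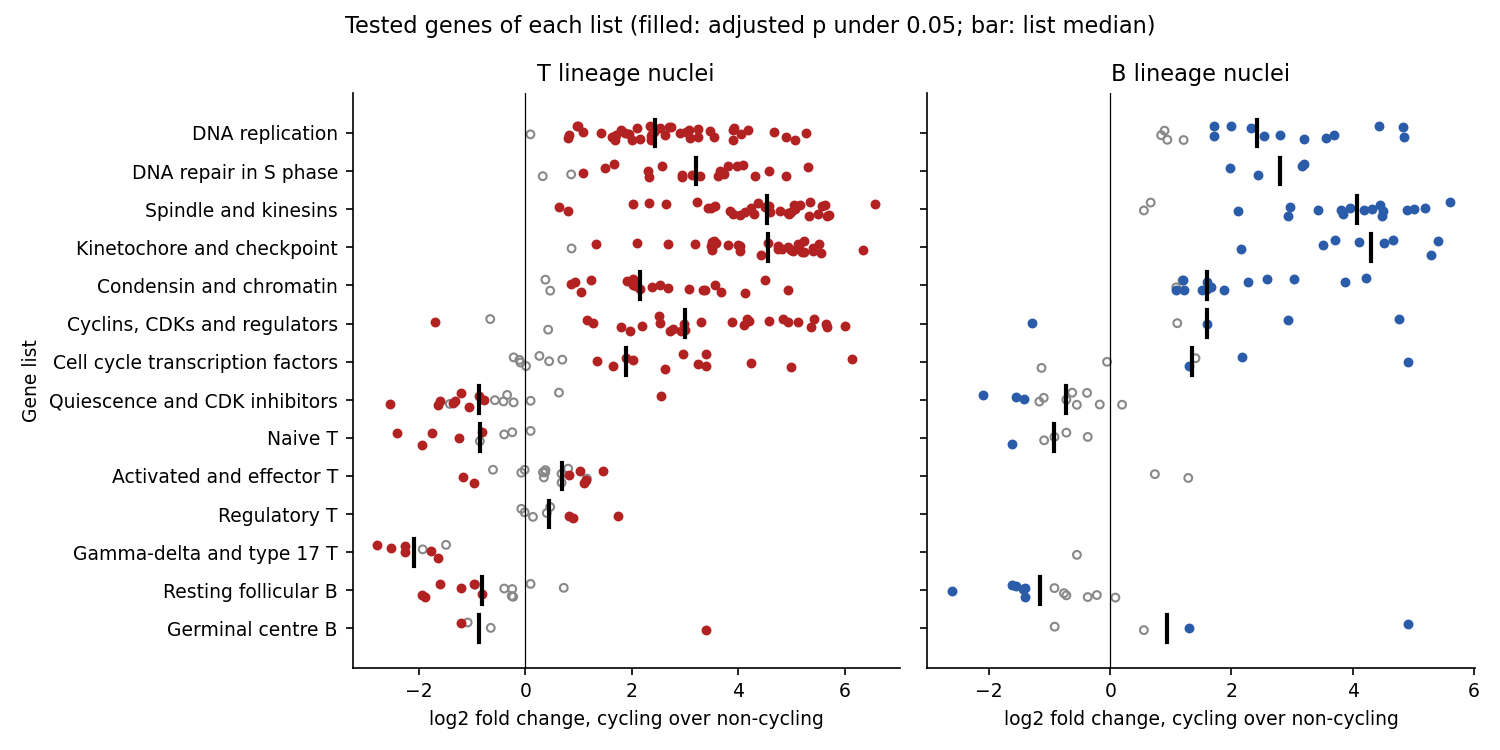
Log2 fold change of cycling over non-cycling nuclei (x axis) for each tested gene of 14 gene lists (y axis), in T (left) and B (right) lineage nuclei, with filled points for adjusted p under 0.05 and a bar for the list median. The medians of the cell cycle lists lie to the right of 0 in both lineages, with a T median of 4.53 for Spindle and kinesins, and those of the quiescence list to the left, with a T median of −0.88, while single genes such as Ccnd3 (−1.70 in T, −1.30 in B) lie on the other side.

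Naive T cell genes were lower in cycling T nuclei, and some activation genes were higher. Of the Naive T list, 5 of 9 tested genes fell and 0 rose (10 listed, median −0.85), with 1856, 2288, 1372 and 986 CPM against 4560, 5271, 2756 and 2358 CPM. Il7r (chr15:9505874-9530262, minus strand), the interleukin-7 receptor of resting T cells, had 211, 273, 238 and 71.8 CPM in cycling and 875, 893, 1677 and 860 CPM in non-cycling T nuclei. Every cycling value was below every non-cycling one (log2 fold change −2.41, SE 0.23, edgeR adjusted p = 7.97e-07). Bach2, a repressor that preserves naive and memory cells, had 159, 182, 39.6 and 105 CPM against 597, 750, 186 and 282 CPM, and was lower in every library. Tcf7, Satb1 and Ccr7 also fell, although the call of Ccr7 was lost without either library of SAT at 2 months (edgeR adjusted p = 0.499 and 0.329) or VAT replicate 2 (0.0603). In contrast, Klf2, a factor for exit from lymphoid tissue, had 304, 364, 224 and 209 CPM against 298, 334, 161 and 194 CPM (edgeR adjusted p = 0.76).

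Of the Activated and effector T list, 5 of 19 tested genes rose (Il2rb, Cxcr3, Ctla4, Tbx21 and Prdm1) and 2 fell (Id2 and Ccl5), with a median of 0.68 (25 listed). The list summed to 2704, 3702, 3839 and 4375 CPM against 2102, 2306, 3249 and 2824 CPM. Il2rb, a chain of the interleukin-2 and interleukin-15 receptors, had 529, 641, 383 and 483 CPM against 272, 317, 159 and 223 CPM, and the classes did not overlap (log2 fold change 1.02, SE 0.16, edgeR adjusted p = 0.000238). Without a library of SAT at 2 months, Tbx21 (edgeR adjusted p = 0.324 and 0.106) and Ccl5 (0.136 and 0.367) lost their calls, and without replicate 2 so did Ctla4 (0.0912) and Prdm1 (0.216). The latter 2 also did so without VAT replicate 2 (0.0553 and 0.151). Tox, a factor of chronically stimulated T cells, had 395, 542, 1029 and 1202 CPM against 445 to 601 CPM (edgeR adjusted p = 0.204). It was higher in both old libraries, while 1 of the 2 young libraries was lower.

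Of the Regulatory T list, 3 of 8 tested genes rose (Ikzf2, Ctla4 and Il1rl1) and 0 fell (median 0.44), with 949, 1456, 2296 and 1868 CPM against 783, 732, 1426 and 1014 CPM. Ikzf2 (chr1:69570373-69727004, minus strand), which encodes Helios, had 474, 592, 1438 and 1195 CPM in cycling and 291, 251, 784 and 603 CPM in non-cycling T nuclei. It was higher in 4 of 4 libraries but overlapped across them (log2 fold change 0.91, SE 0.16, edgeR adjusted p = 0.000444). Foxp3, the defining factor of regulatory T cells, had 32.9, 29.0, 106 and 105 CPM against 41.1, 44.5, 22.4 and 40.3 CPM (edgeR adjusted p = 0.521). The cycling values of the old libraries were above, and those of the young libraries below, the non-cycling values of the same library, and the difference was not tested.

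Gamma-delta and type 17 genes were lower. Of the Gamma-delta and type 17 T list, 6 of 8 tested genes fell and 0 rose (10 listed, 9 in the files, median −2.09), with 93.2, 331, 422 and 84.9 CPM against 637, 409, 3032 and 1067 CPM. Il23r, the interleukin-23 receptor, had 5.48, 45.5, 211 and 0 CPM against 118, 101, 983 and 334 CPM. It was lower in 4 of 4 libraries, with overlap across them, and in non-cycling nuclei it was highest in SAT at 24 months.

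Cd4 and Cd8 were read per nucleus as well. Of the CD4 and CD8 list, 1 of 5 tested genes fell, Cd8b1, a chain of the CD8 coreceptor, with 98.7, 145, 39.6 and 84.9 CPM against 263, 266, 26.4 and 117 CPM (log2 fold change −0.96, SE 0.26, edgeR adjusted p = 0.0155). It was lower in 3 of 4 libraries, and the call was lost without either library of SAT at 2 months (edgeR adjusted p = 0.357 and 0.143). Cd4 had 282, 199, 264 and 268 CPM against 255, 289, 85.6 and 173 CPM (edgeR adjusted p = 0.548). Among T nuclei with UMIs of only 1 coreceptor, Cd4 made up 60.3% (exact 95% interval 47.2 to 72.4), 47.9% (33.3 to 62.8), 71.4% (41.9 to 91.6, or 10 nuclei with Cd4 and 4 with Cd8) and 61.1% (43.5 to 76.9) in cycling nuclei. In non-cycling nuclei it made up 35.6% (31.9 to 39.5), 36.5% (33.7 to 39.3), 52.5% (41.0 to 63.8) and 46.8% (37.3 to 56.6). The intervals of the classes overlapped in 3 of these 4 libraries, all but SAT replicate 1 at 2 months. Thinned to 1000 UMIs per nucleus, these shares were 55.0%, 31.0%, 62.5% and 63.0% of 40, 29, 8 and 27 nuclei, against 34.5%, 36.1%, 54.7% and 46.5%, so that replicate 2 of SAT at 2 months no longer had the higher share in cycling nuclei.

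The 12 largest falls in T nuclei included Il23r, Il1r1 (the interleukin-1 receptor), Cdh10 (a cadherin), Adam23, Nckap5l, Pxdc1, Tcp11l2, Acpp, Smox, Zc3h12b, Abi3bp and Tgtp2, with log2 fold changes of −2.53 to −3.63. Nckap5l fell furthest (SE 0.64, edgeR adjusted p = 0.000569). The value of Tgtp2, an interferon-induced GTPase, is uncertain because it has a near-identical neighbour, Tgtp1.

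Markers of other cells were read in T nuclei too. The Myeloid list summed to 101, 82.7, 39.6 and 124 CPM in cycling and 284, 345, 94.9 and 177 CPM in non-cycling T nuclei, and 1 of its 3 tested genes fell (Lyz2). At least 2 UMIs of that list were seen in 17 of 278 cycling and 279 of 4511 non-cycling T nuclei. The Other tissue list had 288, 434, 145 and 163 CPM against 254 to 615 CPM, with 1 of 3 tested genes lower (Pecam1). Without replicate 2 of SAT at 2 months neither Lyz2 (edgeR adjusted p = 0.0551) nor Pecam1 (0.0722) was called, nor Pecam1 without replicate 1 (0.169). The NK list had 0 to 215 CPM against 36.9 to 190 CPM, with 0 of 2 tested genes called by edgeR, Eomes and Prf1, whose unadjusted p was 0.429 and 0.222. In VAT replicate 2 at least 2 NK UMIs were seen in 8 of 67 cycling and 22 of 387 non-cycling T nuclei. The Thymocyte list had 570, 616, 369 and 549 CPM against 882, 891, 211 and 457 CPM, higher in cycling nuclei of the 2 old libraries, with 1 of 3 tested genes lower. The Lymph node stroma list had 6.53 to 33.1 CPM against 9.22 to 101 CPM, with no gene tested.

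B lineage nuclei were fewer, and fewer of their genes passed the filter on low counts. Of 2987 tested genes, 172 were higher in cycling B nuclei (5.76%) and 126 were lower (4.22%), with a median log2 fold change of −0.03. The 7 cell cycle lists summed to 37083, 36480, 31321 and 31609 CPM in cycling and to 8043, 8309, 6282 and 6637 CPM in non-cycling B nuclei, again far apart. The 12 largest rises included those of Ckap2l, Birc5, Neil3, Tpx2, Prc1, Mybl1, Kif15, Mcm10, Clspn, Cdca2 and Bub1b, with log2 fold changes from 4.67 to 5.60. The count of called genes, 298 in all, was 110 without replicate 1 of SAT at 2 months (91 higher, 19 lower) and 192 without replicate 2 (123 higher, 69 lower). It was 447 without SAT replicate 1 at 24 months, and 145 after thinning.

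The cell cycle lists rose in B nuclei too. In these nuclei 12 of 16 tested genes of the DNA replication list rose (49 listed, median 2.43, sums of 5588 to 7590 CPM against 1274 to 1600 CPM), as did the 4 tested of DNA repair in S phase (24 listed, median 2.80, 2314 to 3407 CPM against 440 to 562 CPM). The Spindle and kinesins list had 16 of 18 (34 listed, median 4.08, 6943 to 7729 CPM against 1014 to 1070 CPM), Kinetochore and checkpoint 8 tested, all higher (35 listed, median 4.31, 4329 to 5439 CPM against 367 to 441 CPM), and Condensin and chromatin 13 of 15 (26 listed, median 1.60, 5323 to 6795 CPM against 1251 to 1671 CPM). In these 5 lists 0 tested genes fell. Incenp had 876, 655, 1003 and 457 CPM in cycling and 65.2, 40.9, 63.4 and 46.3 CPM in non-cycling B nuclei (log2 fold change 3.71, SE 0.30, edgeR adjusted p = 1.08e-08). Pola1, the catalytic subunit of DNA polymerase alpha, had 513, 722, 386 and 283 CPM against 49.6 to 88.5 CPM. Ezh2, a histone methyltransferase of dividing B cells, had 513, 521, 347 and 520 CPM against 55.0 to 109 CPM. All 3 were without overlap.

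Of the Cyclins, CDKs and regulators list, 3 of 5 tested genes rose and Ccnd3 fell (32 listed, median 1.59, 2546 to 4156 CPM against 865 to 2182 CPM). Ccnd3 had 446, 869, 231 and 142 CPM in cycling and 1321, 1637, 427 and 457 CPM in non-cycling B nuclei (log2 fold change −1.30, SE 0.29, edgeR adjusted p = 0.0041). It was lower in 4 of 4 libraries, with overlap across libraries, and without SAT replicate 1 at 2 months the call was lost (edgeR adjusted p = 0.0882). Of the Cell cycle transcription factors list, 3 of 6 tested genes rose (22 listed, median 1.35, 3290, 3742, 1466 and 1543 CPM against 792 to 979 CPM), and Mybl1 gave 1091 and 949 CPM of the 2 high sums. Of the Quiescence and CDK inhibitors list, 3 of 11 fell (Foxp1, Txnip and Pdcd4) and 0 rose (median −0.72), with 1637, 1550, 2507 and 2062 CPM against 2553 to 3923 CPM. Pdcd4, an inhibitor of translation, fell by 2.10 on the log2 scale, and was not called without SAT replicate 1 at 2 months (edgeR adjusted p = 0.0622).

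Genes of resting follicular B cells were lower in cycling B nuclei. Of the Resting follicular B list, 6 of 12 tested genes were called lower and 0 higher (14 listed, median −1.16), 1 of them Bank1, whose UMIs also chose the B nuclei. The list summed to 5076, 4169, 5284 and 2944 CPM against 11672, 10548, 5118 and 6744 CPM. The sum was lower in 3 of 4 libraries and higher in SAT replicate 1 at 24 months. In T nuclei 6 of 13 tested genes of this list fell as well and 0 rose (median −0.82). Bank1, an adaptor of the B cell receptor, had 612, 628, 1234 and 756 CPM in cycling and 2124, 1855, 1677 and 2227 CPM in non-cycling B nuclei, with no overlap, and is given without a test because its UMIs helped to choose these nuclei. Ighd, the constant region of IgD that naive B cells carry, had 546, 494, 540 and 551 CPM against 3049, 2352, 208 and 1151 CPM (log2 fold change −1.40, SE 0.40, edgeR adjusted p = 0.0268). The cycling values lay close together, while the non-cycling values ranged widely, and replicate 1 of SAT at 24 months was higher in cycling nuclei. Cd55, Fcer2a (CD23) and Foxp1 also fell. Without SAT replicate 1 at 2 months Ighd (edgeR adjusted p = 0.434), Cd55 (0.136) and Fcer2a (0.0872) were not called, nor Ighd (0.0851) and Fcer2a (0.0583) without replicate 2.

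Germinal centre genes were high in cycling B nuclei of SAT at 2 months. Of the Germinal centre B list, 2 of 4 tested genes rose (Mybl1 and Fas) and 0 fell (10 listed, median 0.93). The list summed to 2860, 3207, 424 and 645 CPM in cycling and 503, 487, 496 and 399 CPM in non-cycling B nuclei, so that the 2 young libraries stood far above the 2 old ones. In cycling T nuclei the same list had 175 to 235 CPM. Mybl1 (chr1:9737632-9770628, minus strand), the A-Myb factor of germinal centre B cells and also a member of the cell cycle list, had 1091, 949, 154 and 236 CPM in cycling and 17, 30.6, 5.76 and 23.1 CPM in non-cycling B nuclei (log2 fold change 4.91, SE 0.42, edgeR adjusted p = 2.16e-08). Its classes did not overlap. Mybl1 also rose in T nuclei, where cycling nuclei had 46.6, 45.5, 66.0 and 118 CPM against 1.32 to 9.60 CPM (log2 fold change 3.39).

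Without Mybl1 the list had 1769, 2258, 270 and 409 CPM in cycling B nuclei. S1pr2, a receptor that confines B cells to germinal centres, had 132 and 267 CPM in the young libraries and 0 in the old ones, where 3 UMIs would be 116 CPM in SAT replicate 1 and 47.2 CPM in VAT replicate 2. A level in the old SAT library at the lower of the young ones was therefore close to the limit of detection. Rgs13, a regulator of chemokine signals there, had 265, 575, 0 and 15.7 CPM. Fas, a death receptor, had 165, 307, 116 and 299 CPM in cycling and 52.4, 83.4, 144 and 113 CPM in non-cycling nuclei (log2 fold change 1.30, SE 0.38, edgeR adjusted p = 0.0314), with overlap, and lost its call without either library of SAT at 2 months (edgeR adjusted p = 0.225 and 0.262) or VAT replicate 2 (0.0839). Bcl6, the master factor of germinal centres, had 331, 388, 0 and 63.0 CPM against 98.3 to 190 CPM (edgeR adjusted p = 0.533).

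Per nucleus, 19 of 23 cycling B nuclei (82.6%, exact 95% interval 61.2 to 95) and 26 of 31 (83.9%, 66.3 to 94.5) in SAT at 2 months had at least 2 UMIs of the Germinal centre B list. The counts were 3 of 15 (20%, 4.33 to 48.1) in SAT replicate 1 at 24 months and 9 of 18 (50%, 26.0 to 74.0) in VAT replicate 2. In the same order, non-cycling B nuclei had 14.5%, 15.8%, 21.0% and 14.9%. At 1000 UMIs per nucleus the cycling shares were 73.9%, 74.2%, 6.67% and 5.56%, and the non-cycling shares 8.39%, 10.8%, 15% and 8.46%. The thinning was 1 random draw, and the old cycling shares in it were 1 of 15 and 1 of 18 nuclei. In that draw only the young libraries had a higher share in cycling than in non-cycling B nuclei. By CPM of the list, VAT replicate 2 was higher in cycling nuclei as well, at 645 CPM (95% counting interval 463 to 876) against 399 CPM (335 to 472). Replicate 2 of SAT at 24 months and replicate 1 of VAT held 2 and 1 cycling B nuclei, which left 1 library each of the old groups, and the difference between ages was not tested in B nuclei. Over cycling SAT nuclei of all lineages, 0 of 4 tested genes of the list were called between ages (median log2 fold change −0.72, range −1.36 to −0.04). Lymph node stroma genes had 105 and 107 CPM in non-cycling B nuclei of the young libraries, against 11.5 and 60.7 CPM in the 2 old libraries, and their part was not tested.

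**Figure D5:**
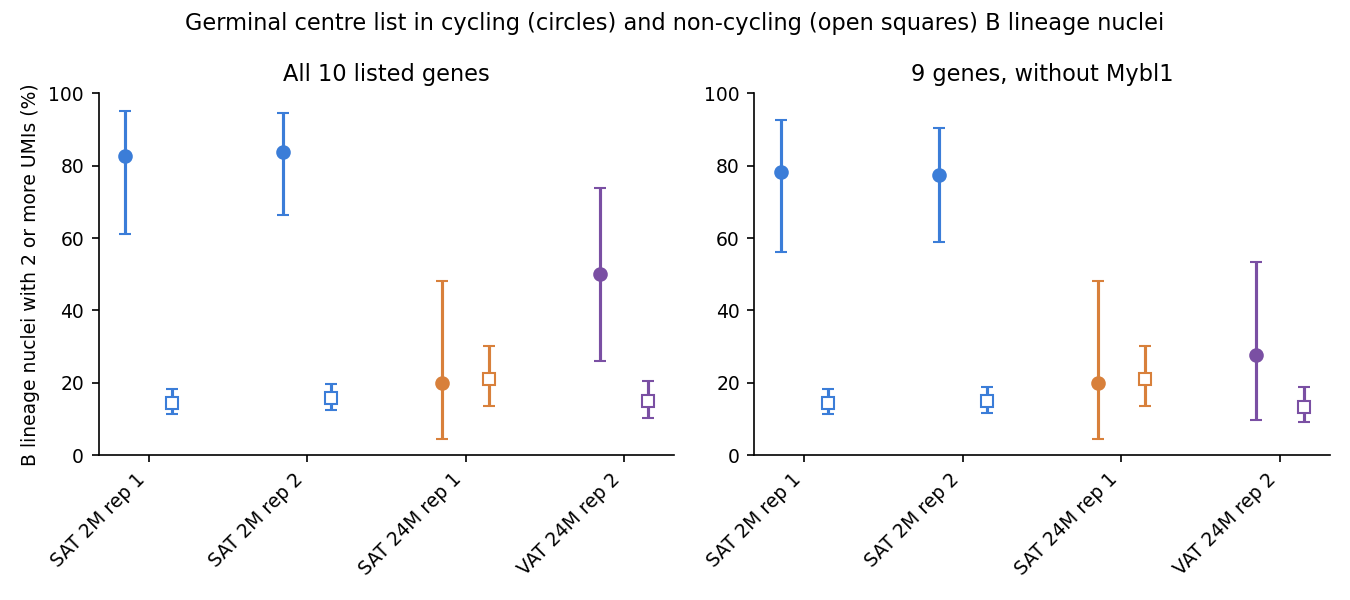
Percent of B lineage nuclei with 2 or more UMIs of the germinal centre list (y axis), in cycling (circles) and non-cycling (open squares) nuclei of 4 libraries (x axis) with exact 95% intervals, for all 10 genes and without Mybl1. Cycling nuclei of SAT at 2 months reach 82.6% and 83.9%, against 20% in SAT replicate 1 at 24 months and 50% in VAT replicate 2, without thinning.

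Plasma cell genes rose in part. Of the Plasma cell list, Xbp1, a factor for antibody secretion, was the 1 of 2 tested genes that rose in B nuclei, with 165, 147, 154 and 189 CPM against 52.4 to 92.6 CPM (log2 fold change 1.26, SE 0.40, edgeR adjusted p = 0.047). That call was lost when any 1 of the 4 libraries was left out (edgeR adjusted p = 0.0696 to 0.28). The list summed to 810, 441, 231 and 299 CPM against 204 to 278 CPM. In T nuclei 2 of 3 rose, Irf4 and Prdm1, which activated T cells also use (211 to 364 CPM against 132 to 181 CPM). The Early B precursor list had 82.7, 93.5, 0 and 0 CPM in cycling and 23.1 to 93.5 CPM in non-cycling B nuclei, with no gene tested. The largest falls in B nuclei were of N4bp2l1, Fyb, Kazn, Marcks, Rora, Zmynd11, Cers4, Rasgef1b, Zswim6, Lrmda, Ghr and Slc9a9, with log2 fold changes of −2.16 to −2.81. In B nuclei the Myeloid list had 347, 321, 309 and 677 CPM in cycling and 575, 730, 1441 and 578 CPM in non-cycling nuclei, and 22 of 90 members had at least 2 of its UMIs against 243 of 1282. The T lineage and B lineage lists chose the nuclei and are given no test.

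The cycling difference itself was compared between the lineages over 7975 genes. It was more positive in B nuclei for 1 gene (0.0125%) and more positive in T nuclei for 4 (0.0502%), and 760 genes had an unadjusted p under 0.05. The balance of these few calls depended on the setting, with 19 and 7 by DESeq2 and 19 and 27 without the filter on low counts. Klhl6, a gene of germinal centre B cells, had 694, 895, 77.2 and 78.7 CPM in cycling and 215, 169, 144 and 95.4 CPM in non-cycling B nuclei. In T nuclei it had 123, 120, 92.4 and 45.7 CPM against 225, 233, 300 and 129 CPM, and the log2 fold changes differed by 2.58 (SE 0.50, edgeR adjusted p = 0.028). In B nuclei it was higher in the young libraries and lower in the old ones. H1f0 (chr15:78912650-78914704, plus strand), a linker histone of non-dividing cells, had 0 UMIs in cycling B nuclei and 26.0 to 34.6 CPM in non-cycling B nuclei. It had 98.7, 86.9, 264 and 157 CPM in cycling and 23.0 to 39.6 CPM in non-cycling T nuclei. In the cycling B sums 3 UMIs would be 40.1 to 116 CPM, above the non-cycling B levels, so that a fall in B nuclei could not be seen at this depth. In each library that limit was below the level of H1f0 in cycling T nuclei. Fyb, an adaptor of the T cell receptor, had 13.4 to 38.6 CPM in cycling B nuclei against 129 to 277 CPM, and 716 to 950 CPM against 752 to 1027 CPM in T nuclei. None of the 5 calls was kept without replicate 1 or without replicate 2 of SAT at 2 months (edgeR adjusted p = 0.236 to 0.528).

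Between ages, few genes differed within cycling nuclei of SAT. Of 5976 genes, 2 were higher at 24 months (0.0335%) and 1 was lower (0.0167%), with 495 at an unadjusted p under 0.05. Psap, which encodes prosaposin, had 43.1 and 64.8 CPM at 2 months and 228 and 733 CPM at 24 months (log2 fold change 2.85, SE 0.50, edgeR adjusted p = 0.0446). Plbd1, a phospholipase of myeloid cells, had 32.3 and 47.9 CPM against 254 and 330 CPM (log2 fold change 2.84, SE 0.48, edgeR adjusted p = 0.0446). Ighg2b, an IgG2b constant region, had 215 and 239 CPM at 2 months and 0 UMIs in both libraries at 24 months. None of the 3 overlapped between ages. The Myeloid list moved in the same way, with 190 and 296 CPM in members at 2 months and 298 and 2932 CPM at 24 months, and its part was not tested. In the members of SAT at 24 months that carried neither lineage list, Psap had 1970 and 1807 CPM and Plbd1 2328 and 703 CPM. The 2 old libraries held 43 and 13 members, and none of the 3 genes was called without SAT replicate 1 at 2 months (edgeR adjusted p = 1) or by DESeq2.

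No cell cycle gene passed the test between ages or depots over all gated nuclei, although 2 were called lower at 24 months when lowly counted genes were kept in. Of 14333 genes, 0 were called by edgeR for age or for depot (0%), with 1306 and 1362 at an unadjusted p under 0.05. Blocks that join SAT and VAT libraries as if of the same mouse were added after same-numbered deviations were seen to correlate at −0.608. With same numbers joined, 0 genes were called. With SAT replicate 1 joined to VAT replicate 2, and 2 to 1, 173 of 14333 genes were higher and 246 lower in VAT. Of these, 0 were cell cycle list genes. The crossed pairing was not chosen independently of the values it tested. Of the 222 cell cycle list genes, 219 were tested. For age 0 were called, 2 were higher and 5 lower at an unadjusted p under 0.05, and the median log2 fold change was −0.30. For depot the median was 0.39, with 0 higher and 1 lower. The 7 lists summed to 11842 and 10756 CPM in SAT at 2 months, 9271 and 6777 CPM in SAT at 24 months, and 5180 and 12522 CPM in VAT. The groups of SAT did not overlap (8024 ± 1764 against 11299 ± 768 CPM, SD, n = 2, exact permutation p = 0.333, the smallest this design allows), and VAT spanned both (8851 ± 5191 CPM, SD, n = 2, exact permutation p = 1). In members alone the sums of SAT were 39142 and 36917 CPM at 2 months and 37018 and 38443 CPM at 24 months, with overlap. In non-cycling nuclei they were 9424 and 9512 against 7611 and 7183 CPM for T and 8043 and 8309 against 6282 and 5446 CPM for B, without overlap, and these differences were not tested. The lists did not move alike in non-cycling T nuclei. The Cyclins, CDKs and regulators list had 2556 and 3000 CPM at 2 months against 1852 and 1867 CPM at 24 months, and the Condensin and chromatin list had 2585 and 2307 against 1574 and 1608 CPM. Ccnd3, a D-type cyclin that was lower in cycling nuclei, had 1780 and 2289 against 1066 CPM (replicate 1 at 24 months), and Smc4, a condensin subunit, had 917 and 711 against 206 CPM. The DNA replication list had 1373 and 1384 against 1356 and 1281 CPM, and the Cell cycle transcription factors list was higher at 24 months, with 881 and 884 against 1157 and 1073 CPM.

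The balance of replication and mitosis genes varied among members. Members with a UMI of Cenpe or Cenpf, 368 nuclei, had 6403 CPM of the DNA replication list and 14578 CPM of the mitosis lists (Spindle and kinesins with Kinetochore and checkpoint). The 67 members without either had 9440 and 10344 CPM. The difference had the same direction in each of the 5 libraries that held both kinds, and is given without a test because the rule used Cenpe and Cenpf.

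The 47 members with neither lineage list differed from the T and B members in their myeloid RNA. Of these, 31 had at least 2 UMIs of the Myeloid list, as had 944 of 1512 non-cycling gated nuclei with neither list. Over the 6 libraries the Myeloid list had 1132, 3316, 1880, 3414, 5504 and 2361 CPM in them. These members still carried the cell cycle lists, at 38010, 33040, 33483, 34240, 18466 and 36088 CPM, against 3970 to 6462 CPM in their non-cycling counterparts. They were 2.19%, 1.53%, 2.0%, 1.92%, 2.13% and 7.49% of the gated nuclei with neither list, the last value being that of VAT replicate 2.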

How the data were processed

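Nuclei of 6 fat libraries were profiled by snRNA-seq. Per the labels and the study's methods, the authors used a Singleron GEXSCOPE kit and an Illumina HiSeq X, and made the deposited tables of raw UMI counts per gene and barcode with Celescope against GRCm39. Whether counting used strand, and which version was run, is not given in the sources used here. The study's text gives the older age differently from the labels, and the labels were followed. Members and lists were chosen with earlier results of these data known.

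Barcodes with more than 500 genes, more than 1000 UMIs and under 15% mitochondrial UMIs were kept. A nucleus was T lineage with at least 2 UMIs of the T lineage list and at least 3 times the B lineage list, B lineage likewise, both when both lists had at least 2 UMIs without that ratio, and neither otherwise. Counts of cycling and non-cycling nuclei were summed per library and lineage where at least 10 members were found, and tested with edgeR 4.0.16 (quasi-likelihood, TMM, filterByExpr, library as block) in R 4.3.3, with Benjamini-Hochberg adjustment over all tested genes. DESeq2 1.42.0 was an alternative. Age and depot were fitted over libraries without a replicate block. Deviations of same-numbered libraries from their group means correlated at −0.038, −0.608 and −0.112 over 6473 genes in gated nuclei and at 0.085, 0.011 and −0.150 over 1349 genes in members, so the numbers were not taken to pair the libraries, although the depots share mice. Shares were compared by exact permutation tests. Named genes were the 12 called genes per direction with the largest log2 fold change, the same sign in every library and a mean of at least 50 CPM in the higher class, rule genes left out (6 per direction for age), and list members by their mean level in cycling nuclei. Some members of lists, such as Foxp3, Bcl6, Tox, Rb1 and Klf2, are also named for values that did not pass. A few genes are not reported here. Scrublet marked 32 of 27074 kept nuclei (0.118%) and 0 members, too few to be used, and doublets were not removed. The tests were tried on simulated data. Promoter sequences and motif matches came from the RefSeq table and gene positions from GENCODE on GRCm39. Python 3.11.15 with numpy 2.4.6, scipy 1.17.1, pandas 2.3.3 and scanpy 1.11.5 was used.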

Additional observations from a re-analysis of the deposited data

Results flagged for a closer look

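For 5 genes the cycling difference was not the same in B and T lineage nuclei by the test of the difference itself (edgeR's quasi-likelihood test, 4 libraries). The log2 fold change of B nuclei minus that of T nuclei was 2.58 for Klhl6, −3.39 for Iqgap2, −9.34 for H1f0, −1.99 for ENSMUSG00000120992 and −2.88 for Fyb, each with an adjusted p of 0.028. The value of H1f0 is no measure of size, since its 4 cycling B sums held 0 UMIs. Iqgap2, a scaffold protein, had 0, 13.4, 38.6 and 15.7 CPM in cycling and 79.4, 90.2, 173 and 83.9 CPM in non-cycling B nuclei, against 477, 571, 488 and 490 CPM and 338 to 518 CPM in T nuclei. ENSMUSG00000120992, a protein-coding gene that the annotation names D17H6S56E-5 (GRCm39 chr17:35213198-35220489, minus strand), had 187 to 413 CPM against 259 to 494 CPM in B nuclei and 351 to 467 CPM against 129 to 199 CPM in T nuclei. Over all 7975 genes the median of this difference was −0.15, and 0.01 when scaled by library size alone.

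Outside the immune gate, 124 kept nuclei met the cycle part of the rule, of 17931 nuclei there (0.692%). By library they numbered 13, 29, 14, 24, 3 and 41 in the order of the libraries above. The comparisons did not use them.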

How the results depend on the processing

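Single genes were followed for 241 T, 83 B, 5 lineage-difference and 3 age genes, and none changed sign under an alternative that gave it a value. Of these, 203 T, 54 B, 0 and 0 lost no call where they had a value. After thinning, 178 T genes kept and 20 lost their call, 37 B genes kept it, and the others had no value. Leaving out each library in turn moved the age difference in the share of members from −0.804 points to between −2.05 and 0.445, that of T nuclei from −1.28 to between −3.02 and 0.469 and that of B nuclei from 0.780 to between −3.55 and 5.11. The depot differences went from 2.57 to between −1.51 and 6.65 for all gated nuclei, from 2.89 to between −3.76 and 9.54 for T nuclei and from −1.54 to between −5.87 and 2.79 for B nuclei. The B depot difference also turned to 1.35 with at least 3 cycle UMIs and to 0.551 after thinning, which moved that of T nuclei to 7.04. The count of T genes, 1429, was 703 to 1660 with a library left out (703 without SAT 2M replicate 1, 930 without replicate 2), 736 after thinning, and 1093 by DESeq2. The count of B genes, 298, was 110 to 447 with a library left out (110 and 192 without the libraries of SAT 2M), 145 after thinning, 596 without the filter on low counts (205 higher, 391 lower), and 196 by DESeq2 (133 higher, 63 lower, against 172 and 126). With nuclei of at most 1 myeloid UMI, a setting chosen after seeing the data, 1400 T and 219 B genes were called. The 5 lineage differences became 0 to 12 with a library left out, 0 with 3 lineage UMIs, and 8 with at most 1 myeloid UMI. They became 26 by DESeq2 (19 more positive in B nuclei, 7 in T nuclei), 8 by library size (4 and 4) and 46 without the filter (19 and 27). The 3 age genes became 0 to 73 with a library left out, 0 by DESeq2 or DESeq2's size factors and 29 without the filter. Over all gated nuclei, 2 cell cycle genes were called lower with age without the filter, instead of 0. With all kept nuclei as denominator the share of members differed by −1.61 points with age and 0.109 between depots, and looser filters gave depot differences of 0.230 for all gated and 0.316 for T nuclei. The causes were not tested.

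Without the block on library the counts were 991 for T, 202 for B and 0 for the lineage difference. With the replicate block, which the numbers do not warrant, the age count in members was 0, and the shares gave the same differences. Since SAT and VAT of 24 months share mice and their same-numbered deviations correlated at −0.608, blocks within 24 months were added after seeing the data. With same numbers 0 of 14333 genes were called between depots (1101 at an unadjusted p under 0.05). With crossed numbers 173 of 14333 were higher and 246 lower (2490), and 0 cell cycle list genes were called with either.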
